A study of Homo sapiens with 18 samples.

Results

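The genes described here are the nuclear-encoded genes for subunits of the respiratory chain, chosen by gene symbol: the NDUF genes of complex I, SDHA to SDHD of complex II, the UQCR genes and CYC1 of complex III, the COX genes of complex IV and the ATP5 genes of complex V. The symbol rule found 84 of the 16410 genes listed in the 2 tables, 82 of 14308 in the MDA-MB-231 table and 84 of 14768 in the T47D table. Of the 84, 82 were subunit genes (38 of complex I, 4 of complex II, 10 of complex III, 12 of complex IV and 18 of complex V) and 2 were non-coding neighbours, NDUFB2-AS1 and NDUFA6-DT. Of the subunit genes, 81 were listed in both tables, and NDUFA4L2 was listed for T47D alone. Values for 3 pseudogene rows with members' names were left out by the rule.

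The respiratory chain sits in the inner mitochondrial membrane. Complex I (NADH dehydrogenase) and complex II (succinate dehydrogenase) pass electrons to coenzyme Q, complex III (cytochrome bc1) passes them to cytochrome c, complex IV (cytochrome c oxidase) passes them to oxygen, and complex V (ATP synthase) uses the resulting proton gradient to make ATP. Complex II is built wholly from nuclear genes, whereas the other complexes combine nuclear-encoded subunits with a few made on mitochondrial ribosomes; the mitochondrially encoded subunits were not analysed here. Nuclear subunit genes are known to be transcribed under shared regulators, among them NRF1, the ETS factor GABP and the coactivator PPARGC1A.

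The study measured gene-level transcript abundance by RNA-seq. It engineered MDA-MB-231, a breast cancer line without oestrogen receptor, and T47D, a breast cancer line with it, to switch on G0S2 with doxycycline. G0S2 is a small protein known to inhibit the lipase PNPLA2, and it has also been described to bind the mitochondrial ATP synthase. In each line there were 3 libraries of control cells without doxycycline, 3 after day 3 and 3 after day 15 of induction with 0.5 ug/ml doxycycline. This made 18 libraries in 6 groups. Every induced group carried both the transgene and doxycycline. No library had doxycycline without the inducible gene, so G0S2 and the drug cannot be told apart. If control cells lacked the vector, it cannot be told apart either. The labels do not say whether control cells were kept in culture as long as induced cells, so time in culture cannot be told apart either. Doxycycline is itself known to inhibit mitochondrial protein synthesis. Separate cultures are not stated in the labels. All p-values therefore cover library-to-library spread alone, and that spread may be technical.

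G0S2 was at 25.02 to 25.48 CPM (reads of a gene per M reads of the library) in MDA-MB-231 controls, 1430 to 1506 at day 3 and 1103 to 1294 at day 15. In T47D it was at 0.277 to 0.900 CPM in controls, 844 to 883 at day 3 and 736 to 993 at day 15. MDA-MB-231 libraries held 37.01 to 52.38 M counted reads, and T47D libraries 40.12 to 50.97 M. All 6 MDA-MB-231 markers (VIM, CAV1 and others) and all 7 T47D markers (ESR1, PGR, GATA3 and others) were present in their own line, with summed levels of 7161 to 7472 and 5490 to 5665 CPM. At day 15 against control, 2 of the 7 were called higher and 3 lower in T47D (5% and 6.23% of all genes), and 1 of the 6 higher in MDA-MB-231 (3.42%). The T47D markers GATA3, KRT19 and CDH1 were also listed in MDA-MB-231 (summed 150.6 to 170.4 CPM), and CD44 in T47D (6.63 to 11.8 CPM). The 2 tables were normalized separately, so levels are set side by side across lines below only as a description.

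Replicate 2 of T47D day 15 stood apart from the other 2 libraries of its group. Its read numbers differed from theirs with a chi-square per degree of freedom of 14.52 and 23.59, against 1.736 to 5.919 for all other pairs within a group of either line. The difference followed the GC content of transcripts: over 11527 genes, its log2 difference from the mean of the other 2 libraries had a correlation of 0.62 with GC content, and replicate 3 of the same group had one of -0.69 against the mean of replicates 1 and 2. In all other groups of either line the correlation ran from -0.48 to 0.48; these are descriptions over genes of shared libraries. Among the 82 subunit genes, replicate 2 was the lowest of the 3 day 15 libraries for 38 and the highest for 39. Counts of members called in T47D at day 15 are therefore given also without this library. That leaves replicates 1 and 3 in the group, and replicate 3 had the correlation of -0.69 given above.

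**Figure D1:**
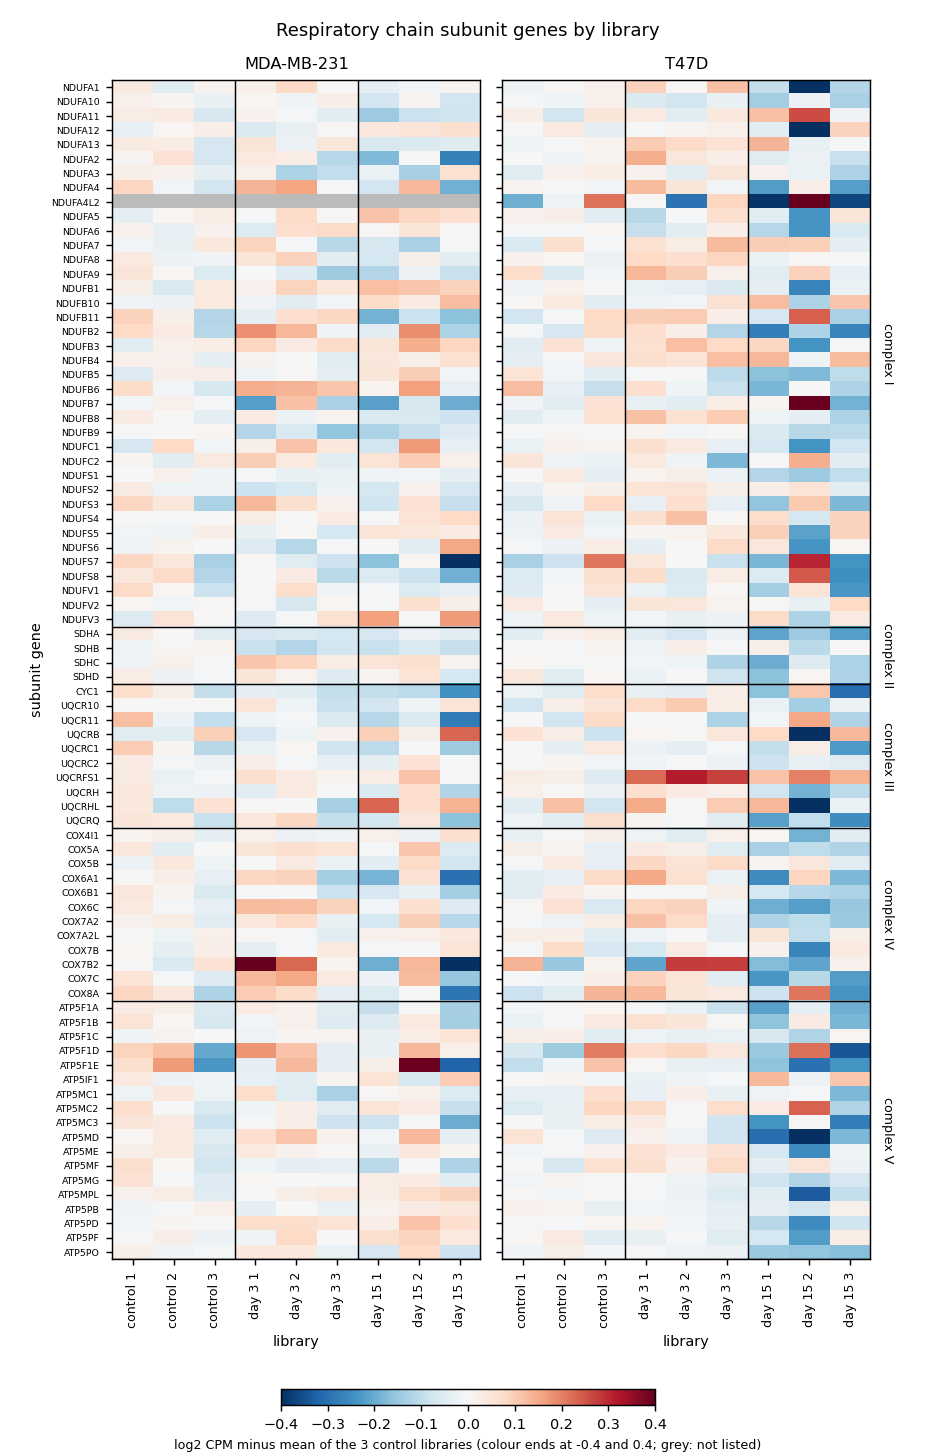
Each subunit gene (rows, grouped by complex) in each library (columns) as log2 CPM minus the mean of the line's 3 control libraries; blue is lower, red is higher, and grey marks NDUFA4L2, which was not listed in MDA-MB-231. Every T47D day 15 library is mostly blue. Genes below the control mean number 57, 54 and 63 of 82 in replicates 1, 2 and 3. Of all 14768 listed genes, 7299, 7238 and 7415 lie below it. Replicate 2 has stronger colours in both directions, and UQCRFS1 is red in all 6 induced T47D libraries.

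As a share of all counted reads, the subunit genes together took 0.660% to 0.689% in MDA-MB-231 controls, 0.665% to 0.687% at day 3 and 0.648% to 0.689% at day 15. The 3 groups of this line overlapped. In T47D the share was 1.17% to 1.18% in controls, 1.18% to 1.20% at day 3 and 1.10% to 1.14% at day 15, so that every day 15 library lay below every control and every day 3 library. Complex V held the largest part of these reads in T47D, 0.432% to 0.439% in controls and 0.403% to 0.428% at day 15, and complex I came next with 0.348% to 0.352% and 0.339% to 0.344%. In bulk samples, fewer cells of a type and less RNA per cell cannot be told apart.

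In MDA-MB-231, 0 subunit genes passed the test at day 3 and 1 did at day 15, and the day 15 count depended on the setting. The test was limma on the deposited log2 CPM, with p-values adjusted by Benjamini-Hochberg over all genes of the line's table and a threshold of 0.05. At day 3, 0 of 81 subunit genes were called higher and 0 lower, against 0.895% and 0.874% of all listed genes; at an unadjusted p under 0.05 there were 4 higher and 3 lower (4.94% and 3.7%, against 7.01% and 6.55% of all genes), and limma's voom fit on read numbers also called 0. At day 15, 0 were called higher and 1 lower, against 3.42% and 4.77% of all genes, with 5 higher and 14 lower at the unadjusted threshold (6.17% and 17.3%, against 11% and 12.7%). Between day 15 and day 3, 0 were called higher and 2 lower, against 2.47% and 2.86%, with 8 higher and 11 lower at the unadjusted threshold (9.88% and 13.6%, against 10.2% and 11%). The voom fit called 0 higher in each comparison. The median log2 change at day 15 was -0.02 for each of complexes I, II and III, -0.01 for complex IV and 0.01 for complex V, beside 0.00 for all listed genes.

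The member called at day 15 was CYC1, cytochrome c1 of complex III. Its level was 92.9, 90.04 and 82.9 CPM in MDA-MB-231 controls, 86.1, 85.9 and 82.9 at day 3, and 82.9, 82.3 and 74.8 at day 15. Every day 15 library lay at or below the lowest control, and the log2 change was -0.15 (SE 0.0411, limma adjusted p = 0.0280). CYC1 transcripts are GC-rich, at 61.8% GC, and in this line the log2 changes of 80 subunit genes at day 15 had a correlation of -0.57 with GC content, beside -0.39 over 11422 genes. With each library's GC trend removed, CYC1 was no longer called. The calls then were SDHB, lower at day 3, NDUFB10, higher at day 15, and SDHB, lower at day 15, and against day 3 NDUFB10 higher and COX6C lower; SDHB apart, these were named after their values were seen. Over the omissions of 1 library the adjusted p of CYC1 reached 0.176.

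Against day 3, COX6C and NDUFB11 were lower at day 15 in MDA-MB-231. COX6C, a small structural subunit of complex IV, was at 80.0, 77.4 and 76.0 CPM in controls, 84.9, 84.7 and 82.9 at day 3, and 77.2, 81.3 and 74.97 at day 15. Its day 3 libraries lay above both other groups, and the log2 change from day 3 to day 15 was -0.11 (SE 0.0335, limma adjusted p = 0.0454). NDUFB11, an accessory subunit in the membrane arm of complex I, was at 27.6, 29.7 and 30.1 CPM at day 3 and 24.9, 26.7 and 25.3 at day 15, a log2 change of -0.18 (SE 0.0525, limma adjusted p = 0.0392). The count of lower members depended on single libraries and on their weights in this line. With library weights, 4 were called higher and 17 lower at day 15 against control (4.94% and 21%, against 10.4% and 11.6% of all genes). Without day 15 replicate 2, 11 were called lower against control (7.28% of all genes) and 15 against day 3 (5.91%); without control replicate 3, 9 were lower against control (7.06%); and without control replicate 1, control replicate 2 or day 15 replicate 3, 0 were. Against day 3, leaving out any other library of the 2 groups gave 0.

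In T47D at day 3, UQCRFS1 rose and no other subunit gene passed the test. Of 82 subunit genes, 1 was called higher and 0 lower, against 1.16% and 0.718% of all listed genes, and at an unadjusted p under 0.05 there were 3 higher and 0 lower (3.66% and 0%, against 4.76% and 5.35% of all genes); voom on read numbers also called 0 lower. UQCRFS1 encodes the Rieske iron-sulfur protein, which takes electrons from coenzyme Q in complex III; the gene lies on chromosome 19 from 29205321 to 29213541 (GRCh38, GENCODE v29, minus strand). Its level was 85.7, 85.3 and 81.1 CPM in controls, 98.4, 104.5 and 101.5 at day 3, and 90.9, 96.6 and 92.4 at day 15. All induced libraries lay above all controls, and day 3 lay above day 15. The log2 change was 0.27 at day 3 (SE 0.0392, limma adjusted p = 0.000841) and 0.15 at day 15 (SE 0.0392, limma adjusted p = 0.0228). The 2 comparisons share the control libraries. In MDA-MB-231 the same gene was at 85.4, 81.9 and 83.0 CPM in controls, 87.2, 85.4 and 84.2 at day 3, and 85.2, 90.3 and 83.2 at day 15; the groups overlapped and it was not called. The day 15 rise was lost without control replicate 2 or control replicate 3, with an adjusted p of up to 0.102 over the omissions, whereas the day 3 rise was called in each of 15 alternative settings.

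At day 15, some subunit genes of each of the 5 complexes were called lower in T47D. Of 82, 13 were called lower and 1 (UQCRFS1) higher, against 6.23% and 5% of all listed genes, and 28 were lower at an unadjusted p under 0.05 (34.1%, against 12.8% of all genes). The log2 change was below 0 for 65 of the 82, or 79.3%, against 48.9% of all genes, and its median was -0.08 against 0.00. In 28 members every day 15 library lay below every control, against 13.4% of all genes. By complex, 3 of 38 genes of complex I were called lower, 1 of 4 of complex II, 2 of 10 of complex III, 3 of 12 of complex IV and 4 of 18 of complex V, with median log2 changes of -0.05, -0.11, -0.09, -0.11 and -0.10. Of these shares called lower, that of complex I was nearest to the 6.23% of all genes. The changes were small: the largest fall was 0.30 on the log2 scale.

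Without day 15 replicate 2, the T47D count was 33 lower and 6 higher, against 13.7% and 11.3% of all genes, and all 13 genes called lower with all libraries were among the 33. These were 11 genes of complex I, 3 of complex II, 4 of complex III, 7 of complex IV and 8 of complex V, and the median log2 changes of complexes I to V were then -0.061, -0.152, -0.065, -0.112 and -0.084. Leaving out day 15 replicate 1 gave 6 lower (7.32% of members, against 3.85% of all genes). Leaving out control replicates 1, 2 and 3 gave 6, 5 and 7 lower (7.32%, 6.1% and 8.54%, against 3.81%, 3.46% and 4.29%). Leaving out day 15 replicate 3 gave 14 lower (17.1%, against 6.89%). With each library's GC trend removed, 21 were lower, against 10.7% of all genes with a GC value, and 11 of the 13 were kept. COX7C and ATP5F1A then had log2 changes of -0.18 and -0.14 with limma adjusted p-values of 0.0527 and 0.0838.

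**Figure D2:**
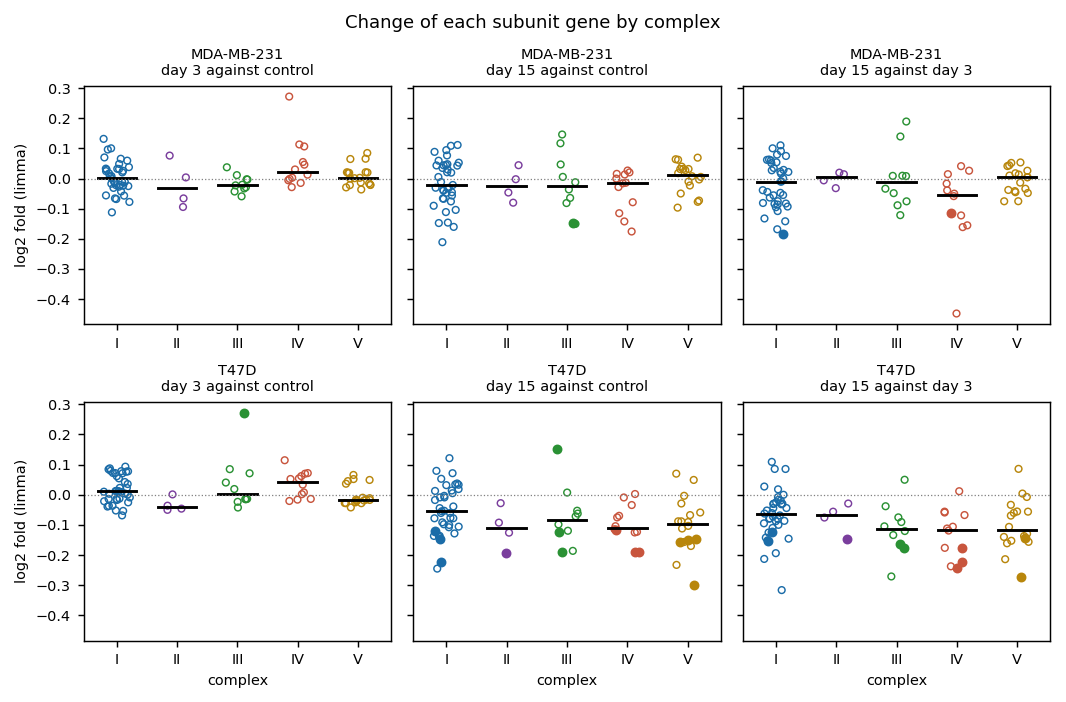
Log2 change of every subunit gene by complex in the 3 comparisons of each line, from limma; filled points passed the adjusted p threshold, open points did not, and black bars are the complex medians. The bars lie near 0 in MDA-MB-231 and below 0 for all 5 complexes in both T47D comparisons of day 15.

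In complex II, which oxidises succinate, SDHA fell. SDHA encodes the flavoprotein with the active site (chromosome 5, 218241 to 256700, plus strand, GRCh38, GENCODE v29). In T47D it was at 313.4, 327.7 and 330.4 CPM in controls, 313.8, 308.7 and 318.3 at day 3, and 279.9, 292.8 and 277.7 at day 15, a log2 change at day 15 of -0.19 (SE 0.0325, limma adjusted p = 0.00142). The day 15 libraries lay below both other groups. SDHC, a membrane anchor, had a day 15 change of -0.13 with an adjusted p of 0.0616, SDHD, the other anchor, -0.09 with 0.220, and SDHB, the iron-sulfur subunit, -0.03 with 0.726. Without day 15 replicate 2, SDHC and SDHD were also called lower (-0.16 and -0.14, limma adjusted p = 0.000256 and 0.00185). With the GC trend removed SDHC was called (-0.12, limma adjusted p = 0.0426) and SDHD was not. In MDA-MB-231 the 4 day 15 changes ran from -0.08 for SDHB to 0.04 for SDHC and none was called.

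In complex V, ATP5MD, ATP5PO, ATP5PD and ATP5F1A fell. ATP5MD (now ATP5MK), a small membrane subunit, is on chromosome 10 from 103389041 to 103396492 on the minus strand. It was at 94.7, 90.8 and 87.8 CPM in T47D controls, 92.1, 89.8 and 86.2 at day 3, and 73.9, 68.0 and 80.4 at day 15. Its day 15 libraries lay below both other groups and its call held in all 6 omissions of 1 library. The log2 change from control was -0.30 (SE 0.0541, limma adjusted p = 0.00230), the largest fall among the members called.

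ATP5PO, the subunit that joins the peripheral stalk to the catalytic head, is on chromosome 21 from 33903453 to 33915980 on the minus strand. Its levels were 236.1, 242.3 and 236.2 CPM in T47D controls, 237.6, 235.0 and 234.2 at day 3, and 215.0, 213.7 and 211.6 at day 15. The 3 libraries of each group were close together, with a log2 change of -0.16 (SE 0.0283, limma adjusted p = 0.00214). ATP5PD, subunit d of the stalk, was at 198.8, 199.0 and 200.7 CPM in controls and 184.9, 167.6 and 188.8 at day 15 (log2 change -0.15, limma adjusted p = 0.0303); ATP5PO and ATP5PD were singled out after their values were seen. ATP5PO was called in all 6 omissions of 1 library, ATP5PD not without any 1 of the controls or day 15 replicate 1, with a limma adjusted p up to 0.1003. In MDA-MB-231, ATP5PD was at 104.4, 105.8 and 105.1 CPM in controls and 106.9, 113.8 and 110.2 at day 15, and was not called.

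The catalytic head is formed by ATP5F1A and ATP5F1B. ATP5F1A was at 709.4, 716.7 and 718 CPM in T47D controls and 615.3, 697.6 and 624 at day 15; replicate 2 was close to the controls and the other 2 libraries were lower. Its log2 change was -0.15 (limma adjusted p = 0.0340), and of the 6 omissions of 1 library it was called in 1, that of day 15 replicate 2. ATP5F1B was at 1258, 1273 and 1312 CPM in controls and 1147, 1310 and 1128 at day 15, a log2 change of -0.10 with an adjusted p of 0.200. Day 15 replicate 2 lay within the control range. Without it ATP5F1B was called lower (-0.17, limma adjusted p = 6.83e-07), whereas with the GC trend removed ATP5F1B was not called. The ring of complex V is made from ATP5MC1, ATP5MC2 and ATP5MC3, paralogues for the same mature protein; their T47D day 15 log2 changes of -0.07, 0.05 and -0.17 were not called with all libraries; without day 15 replicate 2 ATP5MC3 was called lower (-0.26). ATP5IF1, the inhibitor of ATP hydrolysis by complex V, had a log2 change of 0.07 in T47D and 0.03 in MDA-MB-231, neither called. Without day 15 replicate 2 it was called higher in T47D. With the GC trend removed, ATP5MC3 and ATP5IF1 were not called in T47D at day 15 against control.

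In complex IV, COX6C, COX7C and COX5A fell in T47D at day 15. COX6C was at 138.4, 143.6 and 132.2 CPM in controls, 146.4, 147.0 and 136.7 at day 3, and 120.6, 118.4 and 124.2 at day 15, with a log2 change from control of -0.19 (SE 0.0404, limma adjusted p = 0.00750). COX7C, another small structural subunit, was at 216.5, 215.5 and 221.8 CPM in controls and 185.2, 201.9 and 186.8 at day 15, also -0.19 (SE 0.0413, limma adjusted p = 0.00864). For both genes no day 15 library reached a control. COX5A, also a structural subunit and named only to complete the calls, had a log2 change of -0.12. COX6C was not called without control replicate 2 (limma adjusted p = 0.0581), COX7C not without day 15 replicate 1 (0.0543), and COX5A in 1 of 6 omissions only, that of day 15 replicate 2. Among the subunits that have tissue or condition-specific isoforms, COX4I1, COX6A1, COX6B1, COX7A2, COX7A2L and COX8A had T47D day 15 log2 changes of -0.08, -0.11, -0.10, -0.12, -0.01 and -0.03, none called with all libraries. Without day 15 replicate 2, COX6A1, COX6B1, COX7A2 and COX8A were called lower. With the GC trend removed COX6B1 and COX7A2 were (limma adjusted p = 0.0189 and 0.0472), and COX6A1 and COX8A were not. COX4I2, COX6A2, COX6B2 and COX7A1 were not listed in either table. NDUFA4, which carries a complex I name but is known as a complex IV subunit, had a change of -0.14 that was not called with all libraries (adjusted p = 0.172). It was called lower without day 15 replicate 2 (-0.22) and not called with the GC trend removed. With NDUFA4 under complex IV the median of that complex was again -0.11.

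In complex III, UQCRQ and UQCRH fell in T47D at day 15 while UQCRFS1 was higher. UQCRQ, a small subunit known as a coenzyme Q-binding protein, was at 94.7, 92.95 and 100.4 CPM in controls, 96.7, 95.5 and 93.02 at day 3, and 82.5, 89.6 and 80.7 at day 15. Its log2 change was -0.19 (SE 0.0445, limma adjusted p = 0.0133), and every day 15 library lay below every other library of the line. UQCRH, the hinge protein next to cytochrome c1, was at 118.9, 117.7 and 115.3 CPM in controls and 111.1, 102.8 and 109.1 at day 15 (log2 change -0.12, limma adjusted p = 0.0418). UQCRHL, an intronless copy of UQCRH whose reads may be shared with it, was at 4.46 to 7.78 CPM at day 15 and was not called. UQCRC1, a core protein, and CYC1 had log2 changes of -0.10 and -0.12, not called; CYC1 was at 138.4, 167.2 and 125.7 CPM at day 15, replicate 2 above the controls and the other 2 below. With the GC trend removed, and also without day 15 replicate 2, CYC1 and UQCRC1 were both called lower. UQCRQ lost its call when control replicate 3 or day 15 replicate 1 was left out, and UQCRH without any 1 of the controls, with limma adjusted p-values up to 0.0708 and 0.143.

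In complex I, NDUFB2, NDUFB5 and NDUFS1 fell in T47D at day 15. NDUFS1, the largest iron-sulfur subunit of the electron-entry arm, was at 246.2, 253.1 and 240.3 CPM in controls, 248.6, 250.3 and 242.6 at day 3, and 227.5, 222.8 and 230.3 at day 15. Its day 15 libraries lay below both other groups, with a log2 change of -0.12 (SE 0.0311, limma adjusted p = 0.0230). NDUFB2 and NDUFB5 are accessory subunits of the membrane arm. NDUFB2 was at 26.9, 25.8 and 28.5 CPM in controls and 22.3, 24.9 and 22.5 at day 15 (log2 change -0.22, limma adjusted p = 0.0373). NDUFB5, named to complete the calls, was at 273.4, 261.3 and 255.2 CPM and then 235.0, 232.9 and 245.5 (log2 change -0.15, limma adjusted p = 0.0221). NDUFS1 and NDUFB5 were not called without control replicate 1, control replicate 2 or day 15 replicate 1, with limma adjusted p-values up to 0.137 and 0.116. NDUFB2 was called in 1 of 6 omissions, that of day 15 replicate 2. NDUFV1, the NADH-binding subunit, had a change of -0.11 that was not called with all libraries; it was called lower with the GC trend removed (-0.12, limma adjusted p = 0.00346) and without day 15 replicate 2 (-0.19). NDUFA4L2, a paralogue of NDUFA4 known to be induced in hypoxia, was at 0.306 to 0.637 CPM in all T47D libraries and was not called.

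**Figure D3:**
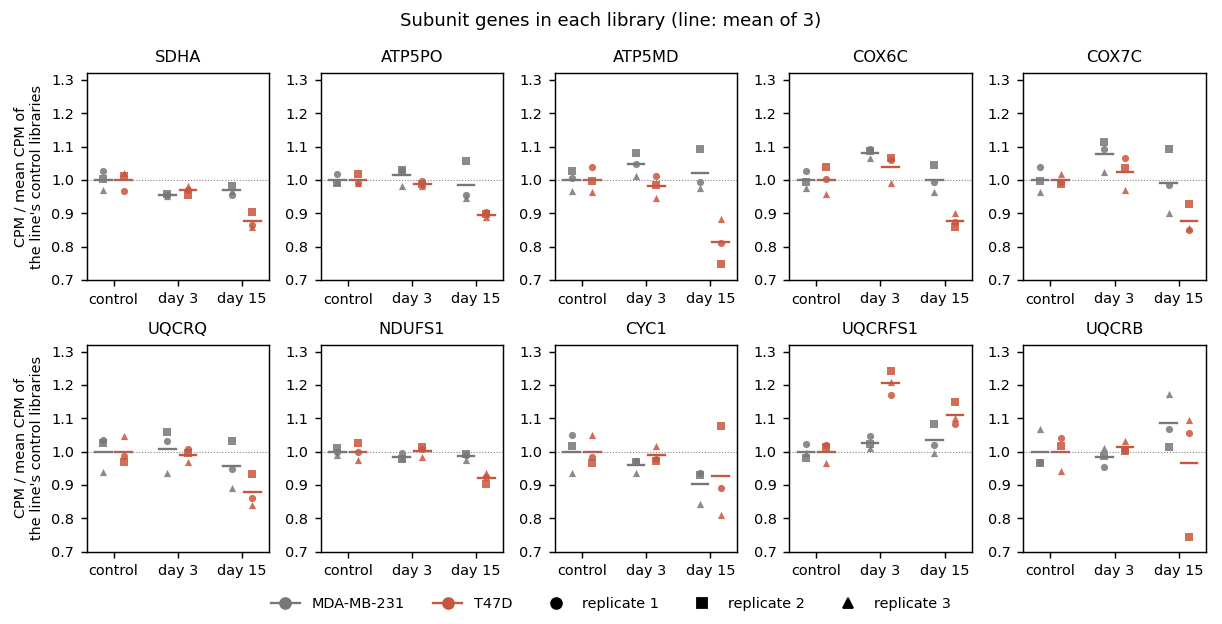
CPM of selected subunit genes in each library divided by the mean of the line's 3 control libraries (grey, MDA-MB-231; red, T47D; marker shape, replicate; bar, mean of 3). In T47D at day 15 the first 7 genes lie below 1 in every library, UQCRFS1 lies above 1, and CYC1 and UQCRB split with replicate 2 on the other side of 1 from the other 2 libraries.

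Several members had values far apart within the T47D day 15 group. For 8 of 82 genes replicates 1 and 3 lay below all controls and replicate 2 above all of them: NDUFA4, NDUFA4L2, NDUFS3, NDUFS7, NDUFV1, CYC1, COX6A1 and ATP5F1D. For 5 genes the order was the reverse: NDUFB10, NDUFS4, NDUFS5, UQCRB and ATP5IF1. These are 9.76% and 6.1% of the subunit genes, beside 5.91% and 5.67% of all listed genes. UQCRB, a subunit of complex III, was at 271.9, 266.2 and 246.3 CPM in controls and 276.2, 194.1 and 286.5 at day 15. NDUFS7, an iron-sulfur subunit of complex I, was at 18.4, 19.0 and 23.4 CPM and then 17.7, 24.9 and 17.0. Transcript GC content was 38.9% for UQCRB and 66.8% for NDUFS7. The genes in this paragraph were named after their values were seen, and the part of GC content in these differences was not tested beyond the fit above.

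**Figure D4:**
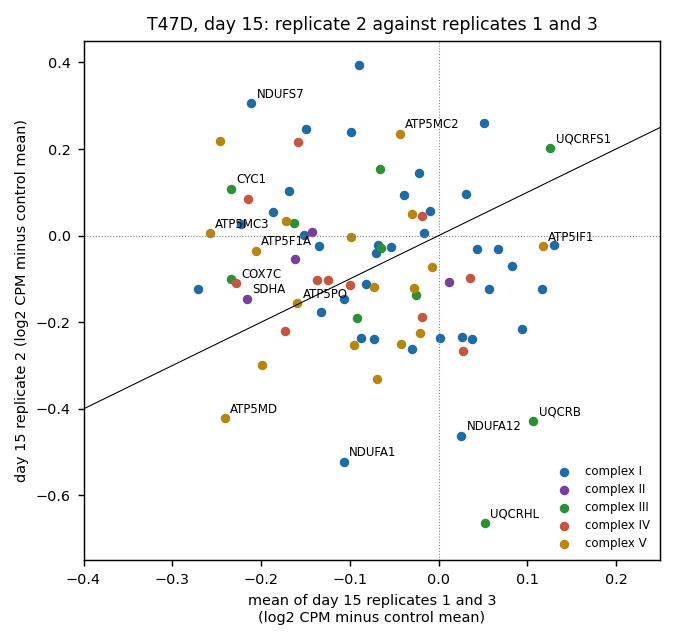
T47D at day 15: for each subunit gene other than NDUFA4L2 and COX7B2, which have few reads, the mean of replicates 1 and 3 (x axis) against replicate 2 (y axis), both as log2 CPM minus the control mean; the black line marks equal values and colours mark complexes. SDHA, ATP5PO and ATP5MD lie below 0 on both axes, whereas UQCRB and CYC1 lie in opposite quadrants.

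The T47D falls at day 15 were also read against day 3, at which no member was called lower. Of 82 subunit genes, 10 were lower and 0 higher, against 3.35% and 2.23% of all listed genes. The change was below 0 for 73 (89%, against 49% of all genes). In 26 members every day 15 library lay below every day 3 library (31.7%, against 11.9% of all genes). The unadjusted threshold gave 32 lower and 1 higher (39% and 1.22%, against 9.68% and 8.27% of all genes), and voom called 0 higher. The comparison shares the day 15 libraries with the one against control, so its values are set beside those above. COX6C had a log2 change of -0.24 (SE 0.0404, limma adjusted p = 0.00206), ATP5MD -0.27, COX7C -0.22, COX7A2 -0.18, UQCRQ -0.18 and UQCRH -0.16, each called. The other 4 called were NDUFB8, SDHA, ATP5PO and NDUFS1, from -0.15 to -0.12. Over the omissions of 1 library COX6C and COX7C kept their calls. ATP5PO lost its call without day 3 replicate 1 (limma adjusted p = 0.0596), and ATP5MD and UQCRH lost theirs without day 3 replicate 1 or 2. COX7A2 lost its call without day 3 replicate 1, day 3 replicate 2 or day 15 replicate 1. SDHA and NDUFS1 lost theirs without any 1 of these or without day 3 replicate 3. UQCRQ and NDUFB8 lost theirs in every omission but that of day 15 replicate 2. Medians for complexes I to V were -0.07, -0.07, -0.11, -0.12 and -0.12, beside 0.00 for all listed genes. Without day 15 replicate 2 the count was 34 lower and 2 higher, against 9.89% and 7.74% of all genes, with all 10 kept. Leaving out day 3 replicates 1, 2 and 3 gave 2, 3 and 6 lower (2.44%, 3.66% and 7.32% of members, against 1.79%, 1.75% and 2% of all genes). Leaving out day 15 replicate 1 gave 6 (7.32%, against 2.16%), and leaving out day 15 replicate 3 gave 10 (12.2%, against 3.37%). With the GC trend removed 23 were lower, against 6.5% of all genes with a GC value, and all 10 were kept.

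Side by side, 81 genes could be read in both lines at day 15 against control. Of these, 34 were lower in both, 7 higher in both, 30 higher in MDA-MB-231 and lower in T47D, and 10 the reverse. These counts take every gene, called or not. No such count was made over all listed genes, so the 34 cannot be read as agreement between the lines. No gene was called in both lines in this comparison, in which 1 of the 81 was called in MDA-MB-231. Between day 15 and day 3, 1 gene was called lower in both, COX6C, by -0.11 in MDA-MB-231 and -0.24 in T47D. In MDA-MB-231 its call held in 1 of 6 omissions of 1 library. The share of all genes called in both lines was not counted. A difference between the lines was not tested, because their tables were normalized separately. The non-coding NDUFB2-AS1 and NDUFA6-DT were not called in any comparison; the strand setting of the counting is not given in the sources used here, so NDUFB2-AS1 and NDUFB2 may share reads.

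Genes that build, feed or regulate the chain were read from lists of related genes. Of 18 regulators, 0 were called higher and 2 lower in T47D at day 15, PPARGC1A and LRPPRC, beside 6.23% of all genes called lower. PPARGC1A, the coactivator of mitochondrial biogenesis, was at 32.2, 33.2 and 30.5 CPM in controls, 29.7, 30.4 and 31.2 at day 3, and 21.5, 20.9 and 24.2 at day 15. The day 15 libraries lay well below all others, with a log2 change of -0.53 (SE 0.0594, limma adjusted p = 4.08e-05). LRPPRC, which stabilises mitochondrial messenger RNAs, was at 428.5, 426.9 and 424.1 CPM in controls, 408.8, 399.9 and 387.3 at day 3, and 376.7, 375.6 and 396 at day 15 (log2 change -0.16, limma adjusted p = 0.00486). In MDA-MB-231, PPARGC1A was at 13.3 to 14.2 CPM in controls and 14.04 to 14.9 at day 15 and was not called; the transcriptional cofactor HCFC1 was the regulator called there, with a log2 change of -0.09 (limma adjusted p = 0.0289).

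Of 14 genes for mobile carriers and coenzyme Q synthesis, 2 were lower in T47D at day 15 and 0 higher, beside 6.23% and 5% of all genes. CYCS, cytochrome c itself, was at 494, 477.5 and 480.6 CPM in controls, 497.1, 487 and 469.3 at day 3, and 418.9, 421.6 and 425.2 at day 15. Its day 15 libraries lay below both other groups, and the log2 change from control was -0.20 (SE 0.0298, limma adjusted p = 0.000555). COQ2, an enzyme of coenzyme Q synthesis, had a log2 change of -0.21 (limma adjusted p = 0.0337). In MDA-MB-231 0 of the 14 were called in any comparison, and CYCS was at 272.6 to 298.4 CPM at day 15 beside 282.6 to 288.2 in controls.

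Of 13 genes of the TCA cycle, which supplies the chain with NADH and succinate, 4 were lower in T47D at day 15 and 0 higher, among them IDH3A, OGDH and MDH2, beside the same 6.23% and 5%. OGDH, the dehydrogenase that makes succinyl-CoA, was at 158.8, 164.3 and 170.6 CPM in controls, 171.2, 172.2 and 172.8 at day 3, and 141.9, 149.6 and 134.5 at day 15 (log2 change -0.21, limma adjusted p = 0.00310). In MDA-MB-231, OGDH was called lower at day 15; it was at 215.1, 216.9 and 210.1 CPM in controls and 199.6, 199.2 and 190.1 at day 15 (log2 change -0.12, limma adjusted p = 0.00277). OGDH was lower in both lines, by separate tests.

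Of 51 listed assembly factors, 3 were lower in T47D at day 15 and 0 higher, again beside 6.23% and 5% of all genes: COX16, NDUFAF5 and LYRM7. LYRM7 is known as a chaperone for the Rieske protein that UQCRFS1 encodes. It was at 91.9, 87.9 and 82.0 CPM in T47D controls, 78.3, 79.3 and 77.8 at day 3, and 78.1, 75.5 and 81.2 at day 15, a log2 change at day 15 of -0.16 (limma adjusted p = 0.0367). In MDA-MB-231 LYRM7 was higher at day 15, at 38.3, 38.0 and 38.4 CPM beside 33.8, 36.1 and 34.6 in controls (log2 change 0.13, limma adjusted p = 0.0353), and ECSIT, a complex I assembly factor, was lower (-0.19, limma adjusted p = 0.0425). At day 3 none of these 4 lists had a call in either line. Without T47D day 15 replicate 2, 5 of 18 regulators, 2 of 14 carrier genes, 6 of 13 TCA cycle genes and 10 of 51 assembly factors were lower, against 13.7% of all genes, and all genes of these lists named here as lower in T47D at day 15 were among them.

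Other marker lists were read beside the T47D groups. All 8 replication-dependent histone genes, searched under 16 current and older symbols, were listed. They were read as a sign of RNA quality because their transcripts mostly lack poly(A) tails. They summed to 290.1 to 298.2 CPM in controls, 324.7 to 329.9 at day 3 and 324.4 to 326.9 at day 15. Against control, 2 were called higher at day 3 and 3 at day 15, beside 1.16% and 5% of all genes. The 2 fibroblast markers listed of 6 summed to 34.5 to 40.1 CPM in controls and 24.7 to 27.3 at day 15; COL1A2, DCN, LUM and PDGFRB were not listed. Of 7 leukocyte markers 3 were listed, summing to 1.303 to 1.76 CPM in controls and 1.61 to 2.04 at day 15, PTPRC was not among them, and 0 of 6 endothelial markers were listed. The part of these in the changes of the subunit genes was not tested.

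The promoters of the subunit genes were read for motifs. RefSeq (GRCh38.p14) gave the 250 bases before the start for 68 of the 82 subunit genes, and 3 motifs were searched on both strands. The ETS core CCGGAAGT, the sequence read by GABP, was present in 10 of 68, or 14.7%, against 3.64% of all 27305 promoters. It was present in 5 of the 11 matched members called lower in T47D at day 15 with all libraries (45.5%) and in 5 of 57 other members (8.77%). This split depends on the setting. Of the first 5, NDUFS1, UQCRH and ATP5PD kept their calls in only 3, 3 and 2 of 6 omissions of 1 library. The other 5 were NDUFA13, SDHD, UQCR11, COX5B and COX8A, and SDHD and COX8A were called lower without day 15 replicate 2. The palindromic NRF1 core was present in 3 of 68 (4.41%, against 1.13%) and the YY1 core AAGATGGC in 1 of 68 (1.47%, against 1.37%), with neither among the 11. These are descriptions of letters in a window and say nothing of binding.

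Printed here are the 170 bases before the RefSeq start, 5′ to 3′ along the gene, of the 5 falling members with an ETS core, whose letters are in capitals on either strand, and of UQCRFS1, the member that rose, where none of the 3 motifs was found in the window.
UQCRFS1: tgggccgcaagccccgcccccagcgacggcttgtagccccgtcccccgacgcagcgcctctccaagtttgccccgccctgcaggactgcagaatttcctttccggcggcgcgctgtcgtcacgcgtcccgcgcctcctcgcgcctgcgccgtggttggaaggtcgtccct
NDUFS1: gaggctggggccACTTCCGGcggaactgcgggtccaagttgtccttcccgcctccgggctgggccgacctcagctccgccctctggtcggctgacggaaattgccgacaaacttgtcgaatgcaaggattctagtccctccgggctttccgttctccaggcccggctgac
UQCRH: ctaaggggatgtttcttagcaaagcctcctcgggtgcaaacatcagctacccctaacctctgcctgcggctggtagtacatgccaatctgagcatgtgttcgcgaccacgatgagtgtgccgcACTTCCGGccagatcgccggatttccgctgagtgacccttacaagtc
UQCRQ: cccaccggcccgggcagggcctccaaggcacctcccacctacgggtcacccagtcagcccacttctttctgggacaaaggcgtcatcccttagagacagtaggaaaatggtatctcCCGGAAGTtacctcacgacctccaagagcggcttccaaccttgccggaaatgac
ATP5MD: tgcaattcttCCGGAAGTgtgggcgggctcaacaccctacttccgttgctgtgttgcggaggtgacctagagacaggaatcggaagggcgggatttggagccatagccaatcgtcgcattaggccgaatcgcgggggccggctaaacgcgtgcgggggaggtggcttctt
ATP5PD: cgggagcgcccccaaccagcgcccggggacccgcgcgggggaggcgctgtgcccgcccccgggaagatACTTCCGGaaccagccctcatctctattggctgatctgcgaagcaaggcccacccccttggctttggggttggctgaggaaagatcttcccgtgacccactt
In GRCh38.p14 these windows are UQCRFS1 chr19:29213152-29213321 on the minus strand, NDUFS1 chr2:206159445-206159614 on the minus strand, UQCRH chr1:46303528-46303697 on the plus strand, UQCRQ chr5:132866472-132866641 on the plus strand, ATP5MD chr10:103396476-103396645 on the minus strand and ATP5PD chr17:75046970-75047139 on the minus strand. RefSeq and GENCODE place the start of some of these genes at different bases, so a window can overlap a transcript of the other annotation.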

How the data were processed

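Gene-level RNA-seq values of 18 libraries were analysed, 9 per line. The deposited values were log2 CPM. The authors' processing used STAR, featureCounts, limma and GRCh38.p13, per the submitters' processing notes; tool versions were not stated. The read numbers behind the log2 CPM were recovered (100% whole within 0.1 read) with the offset of 3.0 reads, in proportion to library size, that the authors' values imply. CPM was computed from these reads with the authors' scaling factors.

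Each line was fitted alone with limma 3.58.1 in R 4.3.3 (group means, 9 libraries, trend and robust moderation, statmod 1.5.0) over all listed genes. The threshold for a call was 0.05 for the Benjamini-Hochberg adjusted p. The fit was tested on simulated data. The members, lists, named genes and alternatives were chosen with earlier results of these data known. Genes were named as follows: up to 6 largest called rises and falls per comparison with a mean log2 CPM of 1 or more, fixed isoforms and core subunits whatever their call, and up to 4 called genes of each related list; others are marked in the text. GC content is the median over a gene's GENCODE v29 coding transcripts, and its trend was removed by lowess. GC values were found for all 82 subunit genes. Alternatives were other moderation, filters, pseudocounts, centring, library weights, a replicate block, fewer libraries, voom and GC removal; voom and GC removal were chosen after seeing the data. Strand use and the handling of shared reads in the counting were not stated, which affects UQCRH with UQCRHL and overlapping genes. The series' design text describes other lines than the sample labels, and the labels were followed. Some values of the related lists are not reported here.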

Additional observations from a re-analysis of the deposited data

Results flagged for a closer look

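The change from control at day 15 differed from that at day 3, by limma's test of day 15 against day 3, for 12 gene and line pairs. They were 2 of 81 members in MDA-MB-231 and 10 of 82 in T47D, beside 2.86% and 3.35% of all genes called lower. In MDA-MB-231 the differences were -0.18 for NDUFB11 and -0.11 for COX6C. This share of members (2.47%) was below that of all genes, and each call held in 1 of 6 omissions of 1 library. In T47D they were -0.15 for NDUFB8, -0.12 for NDUFS1, -0.15 for SDHA, -0.16 for UQCRH, -0.18 for UQCRQ, -0.24 for COX6C, -0.18 for COX7A2, -0.22 for COX7C, -0.27 for ATP5MD and -0.14 for ATP5PO, all on the log2 scale.

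For a pair of members the changes in the 2 lines had opposite signs without overlap between groups. SDHC was called in neither line at day 3, and ATP5PD at day 15 was called in T47D and not in MDA-MB-231. SDHC at day 3 changed by 0.076 in MDA-MB-231, with every induced library above every control, and by -0.0501 in T47D, with every induced library below. ATP5PD at day 15 changed by 0.0693 in MDA-MB-231 and by -0.15 in T47D in the same manner. Of all listed genes, 10.3% lay wholly above the controls in MDA-MB-231 at day 3 and 11.7% at day 15, and 11.9% and 13.4% lay wholly below them in T47D. The difference between the lines was not tested.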

How the results depend on the processing

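Of 28 named calls, 5 held in all 15 alternatives (UQCRFS1 at day 3, SDHA, ATP5MD and ATP5PO at day 15 against control, and COX6C at day 15 against day 3, all in T47D), 6 held in every omission of a library and 0 reversed. Of 185 named gene and comparison pairs that were not called, 58 were called in some setting. The cause of these shifts was not tested. NDUFA4L2 and COX7B2 had few reads, which limits what depth can show for them.

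Counts of subunit genes called moved as follows. In MDA-MB-231 at day 3 there were 3 higher and 1 lower under the replicate block, against 2.24% and 2.21% of all genes. Library weights gave 2 and 2 (4.33% and 4.13% of all genes). The fit of 6 libraries gave 3 higher (1.6%), and 1 was lower with the GC trend removed (1.4%). At day 15 against control there were 2 higher and 12 lower under the replicate block, against 7.25% and 8.63% of all genes. Library weights gave 4 and 17 (10.4% and 11.6% of all genes). With the GC trend removed 1 was higher (2.59%). There were 0 lower without trend and robust moderation (1.09%) or in the fit of 6 libraries (3.33%). Against day 3 there were 2 higher and 10 lower under the replicate block, against 6.19% and 6.31% of all genes. Weights gave 3 and 7 (6.35% and 6.75% of all genes). With the GC trend removed there were 1 higher and 1 lower (3.33% and 2.78%). There were 0 lower without trend and robust moderation (0.182%), and 1 lower after centring (2.62%), in 6 libraries (2.62%) or with voom (2.42%).

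In T47D 3 were higher at day 3 with weights. At day 15 against control there were 0 higher and 4 lower without trend and robust moderation, 7 lower under the replicate block, 7 higher and 38 lower with weights, 0 and 5 in 6 libraries, and 21 lower with the GC trend removed. Against day 3 there were 2 lower without trend and robust moderation, 6 under the replicate block, 7 higher and 47 lower with weights, 4 lower in 6 libraries and 23 with the GC trend removed. The weights of T47D day 15 replicates 1, 2 and 3 were 12.7, 0.154 and 0.369, so the weighted counts rest mostly on replicate 1 at day 15. Shares of all genes under the moderation, block, weight and 6-library settings of T47D are not reported here. Those counts cannot be read as particular to the subunit genes. Replicate numbers were not taken as pairing, since the bar of every same-numbered pair correlating above 0.1 in its deviations was not met: 4 of 9 did in MDA-MB-231 (-0.03 to 0.28) beside 1 of 18 pairs of different numbers, and 0 of 9 in T47D (-0.41 to 0.07) beside 5 of 18.

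Leaving out each library in turn, MDA-MB-231 counts ran from 0 to 2 higher and 0 to 11 lower at day 15 against control and from 0 to 2 and 0 to 15 against day 3. T47D counts ran from 0 to 6 higher and 5 to 33 lower, and from 0 to 2 and 2 to 34. Complex medians moved beyond the spread between libraries as follows, as log2 changes. In MDA-MB-231, complex I was 0.003 at day 15 with the GC trend removed and -0.034 against day 3 with weights. In T47D at day 15 complex IV was -0.091 with log2(CPM + 1), and complexes II and III were -0.166 and -0.057 with weights. Against day 3 with weights, complexes II, III, IV and V were -0.14, -0.088, -0.146 and -0.095. Omissions gave these ranges for medians that moved. In MDA-MB-231 day 15 against control, they ran from -0.038 to 0.003 for complex I and -0.073 to 0.006 for complex IV. In MDA-MB-231 day 15 against day 3, they ran from -0.044 to -0.002 for complex I and -0.055 to -0.003 for complex III. In T47D day 3 against control, they ran from 0.009 to 0.028 for complex I, 0.004 to 0.02 for complex III and 0.015 to 0.05 for complex IV. In T47D day 15 against control, they ran from -0.066 to -0.028 for complex I, -0.152 to -0.073 for complex II, -0.1 to -0.065 for complex III and -0.117 to -0.084 for complex V. In T47D day 15 against day 3, they ran from -0.109 to -0.047 for complex II, -0.129 to -0.102 for complex III, -0.158 to -0.109 for complex IV and -0.136 to -0.088 for complex V.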
